A study of Mus musculus with 5 samples.

Results

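Dividing mesenchymal cells of the mouse ovary are taken here as cells with mesenchymal transcripts that also carried mitotic transcripts when the tissue was dissociated. They were selected on unique molecular identifiers (UMIs, the tags that count single transcript molecules) in single-cell RNA sequencing of ovaries at 2, 3, 4, 5 and 6 wk of age. A cell was a member when it had at least 1000 detected genes, under 15% mitochondrial UMIs and UMIs of at least 4 of the 6 mitotic genes Ube2c, Ccnb1, Plk1, Hmmr, Aspm and Cenpf. It also needed UMIs of at least 2 of the 3 mesenchymal genes Dcn, Col1a2 and Pdgfra, at most 4 UMIs of the granulosa hormone subunit gene Inha, and 0 UMIs of Ptprc, Cdh5 and Rgs5, which mark leukocytes, endothelium and pericytes. The rule found 422 cells among 48163, with 160 at 2 wk, 72 at 3 wk, 69 at 4 wk, 59 at 5 wk and 62 at 6 wk.

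The 5 libraries came from untreated C57BL6/J females, 1 library per age, and no other genotype, allele or agent entered these groups. Ovaries were dissociated in trypsin, and live cells that excluded the dye SYTOX Orange were sorted before droplet capture with a 3′ end kit. How many mice each library pooled is not given in the sources used here. With 1 library per age the spread between mice was not measured, so no test was made and intervals are 95% intervals for counting error alone. The libraries held 9471, 9253, 11077, 7779 and 10583 cells from 2 to 6 wk, of which 7756, 7660, 9169, 6558 and 8824 passed the filter on detected genes and mitochondrial UMIs. Between 18 and 35 cell barcodes were shared by each pair of libraries, and 0 of the shared barcodes belonged to members.

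Mesenchymal cells build the ovarian stroma and its collagen matrix, and those recruited around growing follicles become theca, which makes the androgen that granulosa cells turn into estrogen. Hedgehog ligands from granulosa cells act on the receptor gene Ptch1 in the surrounding mesenchyme, where Gli1 and Hhip are classical targets. A cell that commits to division first licenses and copies its DNA, then raises cyclin A and cyclin B with the kinase CDK1, builds kinetochores and a spindle, and finally degrades cyclin B and securin through the anaphase-promoting complex. Many genes of the last steps are held silent in resting cells by the DREAM complex through short promoter motifs and are switched on late in the cycle by B-MYB and FOXM1.

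The label was checked against genes that the rule did not use. All 10 mesenchymal markers outside the rule had UMIs in the members, and their summed level was 5226, 4609, 5292, 4584 and 5193 CPM (the UMIs of a gene per 1000000 UMIs of the pooled cells) from 2 to 6 wk. The same 10 genes summed to 1126, 189, 1065, 504 and 905 CPM in hematopoietic cells and to 72.3 to 103.9 CPM in dividing granulosa cells. The latter were chosen by the same mitotic genes, with at least 5 UMIs of Inha and UMIs of at most 1 of Dcn, Col1a2 and Pdgfra. Col3a1, a fibrillar collagen, was the most abundant of them in the members. At every age the members' sum was above those of the hematopoietic and dividing granulosa cells. Both gaps were open to selection, since members needed UMIs of at least 2 of Dcn, Col1a2 and Pdgfra. The gap to granulosa cells, which were held to at most 1, was partly fixed by it. In resting mesenchymal cells, with 0 UMIs of the 6 mitotic genes, the sum was 7516, 5410, 6116, 5540 and 5034 CPM, above the members at 2 to 5 wk. Of the 10 genes, 1 was at least 2-fold lower in the members than in resting cells in every library, and 0 were higher.

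The cut on mitotic genes fell at a thin point of the distribution, and the values beside it are given here without a test because they chose the members. Among all mesenchymal cells of the 5 libraries, 12081 had none of the 6 mitotic genes, 1582 had 1, 222 had 2, 90 had 3, 88 had 4, 105 had 5 and 229 had all 6. Cells just outside the cut, with 3 genes, held a median of 6 UMIs of those genes, and cells just inside, with 4, held a median of 11. At the granulosa limit, 4 members stood at the allowed 4 UMIs of Inha and 2 otherwise matching cells stood at 5. In all, 259 otherwise matching cells had 5 or more, at 55, 40, 69, 30 and 65 from 2 to 6 wk, and 210 of the 422 members had 0. Of the members, 340 had all 3 mesenchymal genes and 82 had 2. A further 9 dividing cells had only 1 mesenchymal gene and 7 had 0.

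The rule genes had UMIs in the members at every age. Ube2c, which hands ubiquitin to the anaphase-promoting complex, stood at 529.5, 477.1, 540.5, 602.7 and 543.8 CPM in the members from 2 to 6 wk and was detected in 94.8% of them. Pdgfra, the receptor for platelet-derived growth factor A, stood at 262.9, 73.7, 101.2, 138.6 and 140.1 CPM, so that the 2 wk library was highest and the 3 wk library lowest. Dcn, a small proteoglycan, stood at 863, 664, 831, 658 and 610 CPM in the members and at 1756, 1409, 1742, 3105 and 2002 CPM in resting mesenchymal cells, which had the same mesenchymal rule and 0 UMIs of all 6 mitotic genes. The groups did not overlap for Dcn, and the members were lower at every age. Because Dcn UMIs helped to choose both groups, which differ in depth, this difference is a description and supports nothing.

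The first question was how the dividing share of the mesenchyme differed with age. It was highest at 2 wk, at 4.80% (160 of 3331 mesenchymal cells, exact binomial interval 4.10 to 5.59). The share was 2.31% (1.81 to 2.90) at 3 wk, 2.70% (2.10 to 3.40) at 4 wk, 2.72% (2.07 to 3.49) at 5 wk and 1.93% (1.48 to 2.46) at 6 wk. The 2 wk interval lay above those of the other 4 ages, whose intervals overlapped one another. The share at 2 wk was 2.49 times that at 6 wk, with an exact interval of 1.85 to 3.40, and 1.77 to 2.08 times that at 3, 4 and 5 wk. With 0 UMIs of Inha required, the ratio of 2 wk to 6 wk was 3.89 (2.35 to 6.76). A higher limit on Inha was not tried, and 55 otherwise matching cells at 2 wk and 65 at 6 wk lay above the limit used.

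As a share of every cell past the filter, the members made up 2.06% at 2 wk and 0.940%, 0.753%, 0.900% and 0.703% at 3 to 6 wk, so the order of the first and last ages was the same with this denominator. Dividing granulosa cells went the other way, making up 9.18%, 10.2%, 14.999%, 11.7% and 13.4% of granulosa cells from 2 to 6 wk. Their share at 2 wk was 0.686 times that at 6 wk (0.582 to 0.807). The live sort and the trypsin step came before these shares, and their part in the result was not tested.

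**Figure D1:**
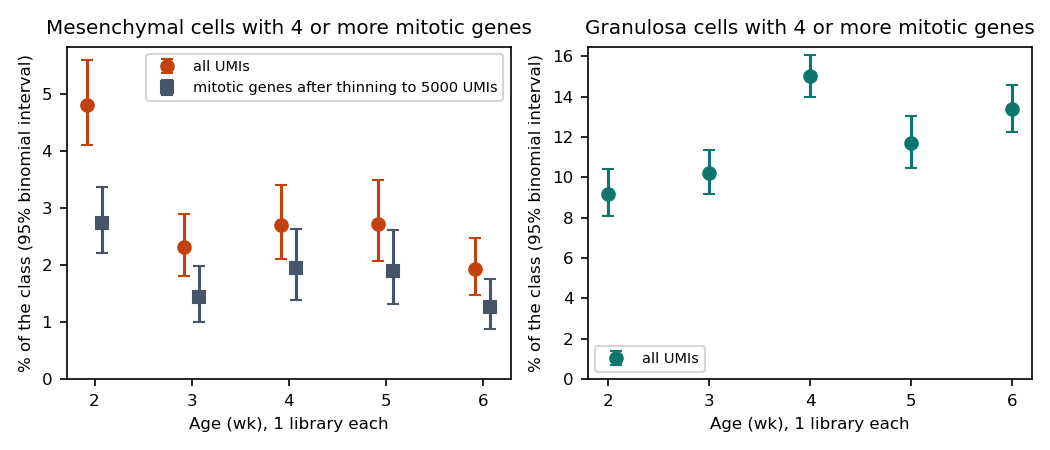
Percent of mesenchymal cells (left) and of granulosa cells (right) with UMIs of at least 4 of the 6 mitotic genes, by age in weeks, 1 library per age, with exact 95% binomial intervals as bars (counting error only); squares give the mesenchymal share with the mitotic genes thinned to 5000 UMIs per cell. The mesenchymal share is highest at 2 wk, 4.80%, and lies between 1.93% and 2.72% at the other ages, whereas the granulosa share is lowest at 2 wk, 9.18%.

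Depth is given beside this share, because mesenchymal cells with all 6 mitotic genes had a median of 23841 UMIs, against 8569 with 0. Members had a median of 21004.5, 17723.5, 14899, 26551 and 25195.5 UMIs per cell from 2 to 6 wk, against 10810, 7314, 7224, 8355.5 and 8722.5 in resting mesenchymal cells. Dividing granulosa cells were deeper still, at 21306 to 30681. Thinning each cell to 5000 UMIs before the whole rule was applied gave ratios of 2 wk to 3, 4, 5 and 6 wk of 1.81 (1.29 to 2.57), 1.37 (0.987 to 1.91), 1.30 (0.932 to 1.82) and 1.80 (1.31 to 2.51), so that the intervals for 4 wk and 5 wk held 1. This thinning also made the limits on Inha, Ptprc, Cdh5 and Rgs5 easier to meet, so the cells under the rule changed. The rule then held 3578, 2537, 2151, 1965 and 2943 mesenchymal cells from 2 to 6 wk, against 3331, 3119, 2558, 2173 and 3216 without thinning. In an alternative chosen after seeing the data, only the mitotic genes were counted after thinning, in the 3211, 2507, 2060, 1856 and 2769 mesenchymal cells with at least 5000 UMIs. The share was then 2.74% at 2 wk, 1.44% at 3 wk, 1.94% at 4 wk, 1.89% at 5 wk and 1.26% at 6 wk. The ratio of 2 wk to 6 wk was 2.17 (1.45 to 3.31), and the interval of 2 wk, 2.20 to 3.37, overlapped those of 4 wk (1.39 to 2.63) and 5 wk (1.32 to 2.61).

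Next, the members were set against the resting mesenchymal cells of the same library. A gene is called higher or lower here when its CPM differed at least 2-fold in the same direction in all 5 libraries. Genes with fewer than 200 UMIs in the pair of groups were left aside. Of 11923 such genes outside the rule, 524 (4.39%) were higher in the members and 178 (1.49%) were lower, with a median ratio of 0.976 over all genes. After thinning to 5000 UMIs per cell before the rule, which also changed which cells met it, the counts were 305 and 56. With 0 UMIs of Inha required they were 393 and 94, so the lower side rests more on these choices. Because mitotic UMIs of these cells chose the members, the mitotic part of this contrast describes what was selected and supports nothing. The genes are given by role, each list beside this background.

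Kinases and cyclins that drive entry into mitosis are taken first. All 18 listed genes outside the rule passed the minimum and all 18 were called higher, with a median ratio of 67.2. Ccna2, the cyclin A of S phase and G2, stood at 236, 170, 219, 208 and 219 CPM in the members and was 126 to 330 times the resting level. Cdk1, the catalytic partner of cyclin B, stood at 348, 160, 176, 404 and 435 CPM with a median ratio of 27.0. The lowest ratio of the list belonged to Wee1, the kinase that holds CDK1 inactive, at 3.08 to 7.96 over the 5 libraries.

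Among the 9 genes of the anaphase-promoting complex, its regulators and securin, 7 were called higher and none lower. Cdc20, which activates the complex in anaphase, stood at 236, 233, 276, 236 and 283 CPM in the members and at 1.68 to 3.13 CPM in resting cells. Fbxo5, an inhibitor of the complex, had ratios of 26.9 to 32.8. Pttg1, which encodes securin, was the exception, with 39.1, 36.1, 37.4, 35.3 and 41.6 CPM in the members against 38.8, 38.1, 40.03, 48.4 and 51.3 CPM in resting cells. Anapc11, the ring-finger subunit, had ratios of 1.64 to 2.06 and was not called either.

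Centromere and kinetochore genes were called higher for 17 of 18, with a median ratio of 97.2. Nuf2 and Spc25, subunits of the NDC80 complex that grips microtubules, stood at 71.2 to 101.7 CPM and 148.0 to 192.3 CPM in the members. Zwint was the one not called, at ratios of 1.51 to 1.97. All 19 genes of the spindle and cytokinesis list were called higher, with a median ratio of 94.01. In this list Kif11, the motor that pushes spindle poles apart, ranged from 155.2 to 236.7 CPM, and Anln, a scaffold of the cleavage furrow, from 157.8 to 264.3 CPM.

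Promoters are shown for Nuf2, Spc25 and Kif11, so that windows with and without the motifs of late-cycle genes can be set side by side in genes that resting cells nearly lacked. They come from the 6 genes of the mitotic lists whose lowest ratio was highest and whose window held no annotated exon. Of those 6 windows, 4 (Nuf2, Cep55, Knl1 and Birc5) held no motif, for which Nuf2 stands, and Spc25 and Kif11 held 2 matches each. Each line gives the 250 bases before the RefSeq start in GRCm38.p6, 5′ to 3′ on the strand of the gene, with motifs in capitals.
Nuf2, chr1:169531465-169531714, minus strand: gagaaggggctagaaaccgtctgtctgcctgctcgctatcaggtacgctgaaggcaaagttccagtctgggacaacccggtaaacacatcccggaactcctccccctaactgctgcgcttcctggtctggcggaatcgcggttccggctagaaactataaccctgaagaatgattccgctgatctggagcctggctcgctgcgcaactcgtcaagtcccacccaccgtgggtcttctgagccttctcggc
Spc25, chr2:69206214-69206463, minus strand: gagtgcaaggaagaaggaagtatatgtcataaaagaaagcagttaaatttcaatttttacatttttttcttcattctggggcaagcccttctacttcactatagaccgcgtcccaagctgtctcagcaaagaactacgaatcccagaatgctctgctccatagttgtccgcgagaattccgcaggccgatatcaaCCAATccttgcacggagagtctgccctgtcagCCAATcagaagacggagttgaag
Kif11, chr19:37376132-37376381, plus strand: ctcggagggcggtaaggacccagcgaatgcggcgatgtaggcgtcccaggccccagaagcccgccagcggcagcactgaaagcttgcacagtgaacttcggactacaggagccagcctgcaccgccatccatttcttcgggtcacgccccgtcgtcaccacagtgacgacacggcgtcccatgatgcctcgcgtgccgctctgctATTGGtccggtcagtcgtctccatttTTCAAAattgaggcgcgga
The motifs searched on both strands were the cell cycle homology region TTTGAA or TTCGAA, the NF-Y box CCAAT, and the E2F sites TTTCCCGC, TTTGGCGC and TTTCGCGC, none of which overlaps another. Spc25 held CCAAT starting 55 and 23 bases before the start. Kif11 held ATTGG, which is CCAAT read from the other strand, 45 bases before the start, and TTCAAA, the reverse complement of TTTGAA, 19 bases before it. The Nuf2 window held none of these letters.

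Over the mitotic lists, 54 of 64 genes matched a RefSeq promoter. A cell cycle homology region was found in 18 of 54 (33.3%), against 17.1% of all 32851 promoter windows. CCAAT was found in 33 of 54 (61.1%) against 33.8% of all windows, and an E2F site in 4 of 54 (7.41%) against 1.53%. A match describes the letters in the window and is not a bound site.

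Chromosome structure genes were called higher for 16 of 17, with a median ratio of 18.8. Mki67, which coats mitotic chromosomes and is the usual stain for proliferation, stood at 696, 634, 630, 618 and 627 CPM in the members and at 1.76 to 4.22 CPM in resting cells. Top2a, the topoisomerase that untangles sister DNA, stood at 1175, 1147, 1117, 983 and 1064 CPM. Both genes varied little with age, and the groups were far apart in every library. Cbx5, a heterochromatin protein, had ratios of 1.45 to 1.88 and was not called.

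Factors that switch cell cycle genes were called higher for 9 of the 10 that passed the minimum, with a median ratio of 6.96. Foxm1 stood at 51.1, 56.0, 53.8, 58.6 and 62.5 CPM in the members, and its resting level was 0.844 to 1.36 CPM. Mybl2, which encodes B-MYB, stood at 23.3, 28.0, 19.1, 17.0 and 24.0 CPM. Subunits of the MuvB core were closer to the resting level, with Lin9 at ratios of 2.11 to 4.27 and Lin54 at 3.79 to 4.94, whereas Lin52 did not reach 2-fold in every library.

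Replication genes were also higher but by less. Of 27 genes for licensing and fork work, 25 were called higher, with a median ratio of 5.71. Mcm6, a subunit of the replicative helicase, stood at 89.4, 83.3, 85.7, 92.6 and 95.3 CPM in the members against 37.6, 29.3, 26.8, 18.6 and 18.7 CPM in resting cells. Pcna, the sliding clamp, had ratios of 2.37 to 5.20. Slbp, which binds histone messages, and Mcm2 were not called, Mcm2 because its lowest ratio was 1.98. In nucleotide synthesis 7 of 8 genes were called, from Dctpp1 at 2.58 to 5.14 up to Tk1, thymidine kinase, at 37.5 to 179.1. Impdh2, an enzyme of guanine nucleotide synthesis, had ratios of 1.06 to 1.20.

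**Figure D2:**
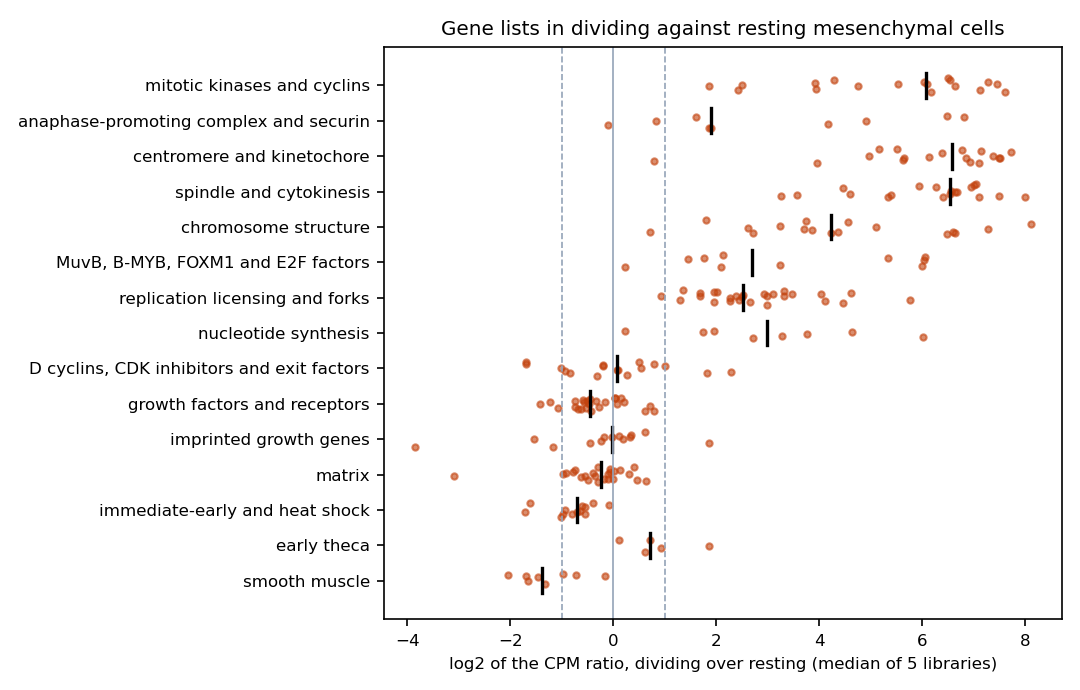
The log2 ratio of CPM in dividing over resting mesenchymal cells, 1 point per gene at its median over the 5 libraries, with a black bar at the median of each list, a solid line at equal levels and dashed lines at 2-fold. The 8 division lists lie mostly above the upper dashed line, and the smooth muscle list lies below equal levels, at a median ratio of 0.383.

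Of the genes outside the lists that stood furthest above the resting level, 4 are given here. Iqgap3, a scaffold of the cell cortex, had 326 UMIs in 422 members and 9 UMIs in 12081 resting cells, or 28.97 to 39.1 CPM against 0.0525 to 0.0988 CPM. Depdc1a had 961 UMIs against 31. Esco2, which acetylates cohesin, had 1165 UMIs against 73, and Kif14, a motor of the midbody, had 346 against 16.

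The switches between cycling and rest were mixed. Of 17 D cyclins, CDK inhibitors and exit factors past the minimum, 2 were called higher, 2 lower and 13 neither, with a median ratio of 1.05. Cdkn2d, an inhibitor of CDK4 and CDK6, stood at 55.2, 83.3, 72.0, 103.3 and 116.1 CPM in the members against 11.2, 12.1, 16.0, 21.1 and 15.4 CPM in resting cells. The related Cdkn2c had ratios of 2.09 to 7.88. Both inhibitors were thus higher in the cells with mitotic transcripts. With the mean of single-cell CPM, 1 gene of this list was called higher instead of 2.

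Ccnd2, a D cyclin that answers growth signals, was on the low side. It stood at 99.7, 102.5, 93.0, 65.5 and 83.3 CPM in the members against 338, 404, 299, 176 and 196 CPM in resting cells, with no overlap. Gas1, a surface protein that binds hedgehog, had ratios of 0.189 to 0.374. Ccnd1 had ratios of 0.756 to 2.19 and Cdkn1a, the p21 inhibitor, of 0.62 to 4.65, so neither held 1 direction over the ages. At 6 wk 1 member held 57.0% of the Cdkn1a UMIs.

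Growth factors and receptors gave 0 calls in either direction among 25 genes, with a median ratio of 0.735. Igf1 stood at 122.1, 61.9, 75.7, 65.5 and 49.2 CPM in the members against 282.8, 131.0, 139.8, 159.8 and 90.8 CPM in resting cells, at ratios of 0.410 to 0.542. Myc had ratios of 0.51 to 0.68. The hedgehog readouts lay on the other side, with Ptch1 at 1.14 to 1.81 and Gli1 at 1.13 to 2.28.

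The early theca markers overlap with the hedgehog genes. All 5, with Ptch1, Gli1, Hhip and Mest among them, passed the minimum, 0 were called, and their median ratio was 1.65 against 0.976 over all genes. Hhip, a secreted hedgehog antagonist that is itself a target, stood at 132.4, 112.8, 124.02, 150.5 and 123.0 CPM in the members and at 56.1, 70.6, 71.3, 74.1 and 64.3 CPM in resting cells. The groups did not overlap, yet the ratio stayed under 2 at 3, 4 and 6 wk. With cells thinned to 5000 UMIs, 28.9% of members had a UMI of Hhip against 14.9% of resting cells, and without thinning 49.8% against 19.98%.

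Mest, an imprinted gene expressed from the paternal copy, stood at 30.7, 91.4, 158.6, 81.9 and 99.7 CPM in the members and at 26.5, 25.8, 36.8, 21.2 and 27.4 CPM in resting cells. It was close to the resting level at 2 wk, with a ratio of 1.16, and was several times that level at the other 4 ages. The imprinted growth genes, Mest among them, gave 0 calls among 13, with a median ratio of 0.990.

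**Figure D3:**
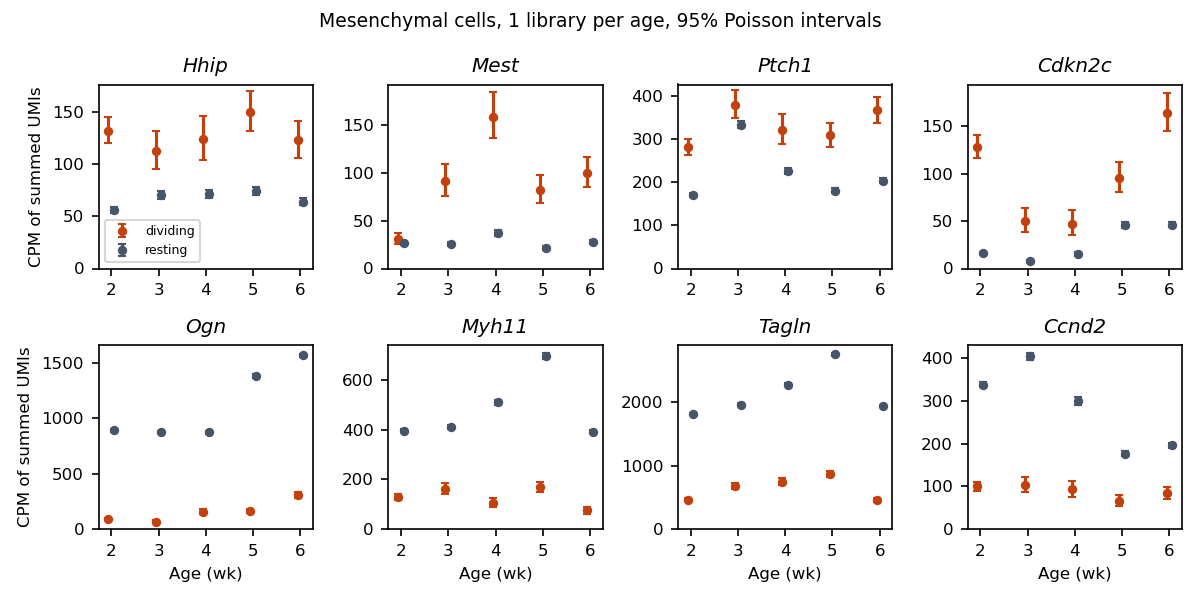
CPM of summed UMIs by age in weeks for 8 genes in dividing and resting mesenchymal cells, linear axes that start at 0, 1 point per library with exact 95% Poisson intervals. Cdkn2c, Hhip and Ptch1 lie higher in dividing cells at every age, Mest does so from 3 wk on, and Ogn, Myh11, Tagln and Ccnd2 lie lower.

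Matrix genes were largely at the resting level. Of 24 genes, 1 was called lower and 0 higher, with a median ratio of 0.854. That gene was Ogn, a small leucine-rich proteoglycan, at 92.8, 67.8, 156.8, 161.2 and 309.8 CPM in the members against 889.5, 875.5, 872.7, 1379 and 1567 CPM in resting cells. Col1a1, the main fibrillar collagen, stood at 1193, 1383, 1319, 1078 and 1252 CPM against 1961, 1478, 1416, 1204 and 924 CPM, so that the groups overlapped. The basement membrane collagen Col4a1 had the highest ratio of the list, 1.16 to 2.25.

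Contractile genes gave calls on the lower side. Of 8 smooth muscle markers, 4 (Myh11, Lmod1, Tagln and Cnn1) were called lower, the median ratio was 0.383, and the summed level was 2687, 2906, 2582, 4293 and 2385 CPM in the members against 5847, 5663, 6502, 8298 and 6013 CPM in resting cells. Tagln, which binds actin in smooth muscle and in the stroma, stood at 466, 684, 749, 875 and 453 CPM in the members against 1821, 1966, 2278, 2763 and 1940 CPM. Myh11, the smooth muscle myosin, stood at 128, 162, 106, 168 and 75.1 CPM against 396, 409, 509, 695 and 392 CPM. Acta2, the most abundant of the list, stood at 1675, 1751, 1456, 2652 and 1655 CPM against 2782, 2492, 2882, 3677 and 3105 CPM and did not reach 2-fold.

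The 12 genes outside the lists that were furthest below the resting level were C3, Tcp11l2, Mustn1, Aspn, Igfbp3, Crispld2, Adamtsl1, Rspo3, Sh3bgr, Porcn, Ahnak2 and Adh1. Aspn, another leucine-rich proteoglycan, stood at 14.4, 5.16, 21.9, 15.1 and 41.0 CPM in the members against 191.8, 130.4, 113.9, 281.2 and 209.3 CPM. Tcp11l2 had 45 UMIs in the members and 4883 in resting cells, and Mustn1 had 29 against 2581. C3, the central complement component, had 10 UMIs in the members and 3905 in resting cells. Rspo3, which amplifies Wnt signals, had 29 UMIs against 2344, and Crispld2 had 87 against 7163. Igfbp3, a carrier of insulin-like growth factors, had 21 UMIs against 2216.

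Genes induced by stress and dissociation gave 2 calls. Of 13 immediate-early and heat shock genes, the inducible chaperones Hspa1a and Hspa1b were called lower and 0 were higher, with a median ratio of 0.617. Hspa1a stood at 79.0, 78.9, 70.2, 85.7 and 36.0 CPM against 257.7, 214.0, 205.0, 405.8 and 389.9 CPM. Fos had ratios of 0.569 to 0.824. These genes respond to the enzymatic release of cells, and their part in the other differences was not tested.

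The members were then asked which known stromal programs they carried. A cell was counted as holding a program when at least 2 of its markers had a UMI after thinning to 5000 UMIs, which 419 members and 10238 resting cells reached. The early theca program was held by 43.4% of members (exact binomial interval 38.6 to 48.3) and 22.4% of resting cells (21.6 to 23.2). By age it was 37.3%, 47.2%, 34 of 68 cells, 45.8% and 45.2% in the members against 18.6%, 32.6%, 26.6%, 19.01% and 16.9% in resting cells, with no overlap. The Cd24a stroma program, with Cd24a, Col15a1 and Ramp3, was held by 10.7% (7.94 to 14.1) against 4.25%. As a background for free RNA, after the same thinning 4.24% of hematopoietic cells and 0.763% of dividing granulosa cells held the early theca program, and 3.18% and 0 of them the Cd24a program. The granulosa cells were chosen with a cap on Dcn, Col1a2 and Pdgfra, so their background was open to selection. Cd24a itself had a mean of 80.1 CPM in hematopoietic cells, above the 36.5 CPM of resting cells. Whether that Cd24a was free RNA was not tested. Without thinning, early theca was held by 78.2% of members and 35.8% of resting cells, and Cd24a stroma by 19.9% and 5.93%.

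For other programs the thinned share was lower in members than in resting cells. Smooth muscle was held by 48.9% (44.0 to 53.8) against 58.7%, and the Hoxd9 stroma program, with Hoxd9, Wt1 and Edn3, by 8.83% (6.29 to 11.97) against 15.8%. The adventitial fibroblast program, whose 5 genes had a median ratio of 0.253 with 0 calls, was held by 4.06% (2.38 to 6.42) against 6.74%. For these 3 programs the direction turned without thinning, when the deeper members held more markers: smooth muscle was held by 74.9% of members against 63.9% of resting cells, Hoxd9 by 31.5% against 25.8% and adventitial by 10.2% against 9.57%. Their background in hematopoietic cells after thinning was 12.7%, 1.06% and 0.353%. At least 2 granulosa markers were found in 24.8% of thinned members against 35.4% of thinned resting cells, and without thinning in 71.6% against 55.1%. Pericyte markers turned likewise, at 2.63% against 3.09% thinned and 17.1% against 7.62% unthinned. The program of stroma with Lrat and Cxcl12, whose 3 genes had a median ratio of 0.281 with 0 calls, was held by 2 of 419 members (0.477%, 0.0579 to 1.71) against 626 of 10238 resting cells (6.11%) and 1.06% of hematopoietic cells, and without thinning by 4.50% of members against 10.9% of resting cells. In resting cells it was commonest at 5 wk and 6 wk, at 11.4% and 13.3%, where 1 of 59 and 0 of 62 members held it. Lrat, the enzyme that stores retinol as esters, had 5 UMIs in 3 members.

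The steroidogenic theca program was held, after thinning, by 3 of 158, 6 of 72, 3 of 68, 1 of 59 and 0 of 62 members from 2 to 6 wk, or 3.103% in all (1.66 to 5.25), and by 2.55% of resting cells. Without thinning it was held by 11.1% of members, 3.72% of resting, 8.36% of hematopoietic and 37.9% of dividing granulosa cells. Of thinned hematopoietic cells, 0 of 37, 0 of 22, 0 of 49, 6 of 84 and 10 of 91 held it, and of dividing granulosa cells 14.7%. Single members carried much of it, with 1 member holding 48.8% to 100% of the UMIs of Cyp17a1, the enzyme that commits steroids to androgen, at each age where it was found. Star, which carries cholesterol into mitochondria, stood at 13.2, 11.1, 10.9, 8.19 and 1.89 CPM in the members against 12.4, 15.3, 30.7, 24.6 and 6.07 CPM.

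Markers of several programs were found in single members. Without thinning, 316 members held smooth muscle markers, 330 held early theca markers and 255 held both. In all, 11 members held none of 7 stromal programs, 60 held 1, 180 held 2, 134 held 3, 35 held 4 and 2 held 5. Without thinning 17.2% of dividing granulosa cells and 17.0% of hematopoietic cells also held the smooth muscle program, and 8.45% and 7.28% the early theca program. How many of those cells held both programs was not counted, so the part of background in the overlap was not tested.

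**Figure D4:**
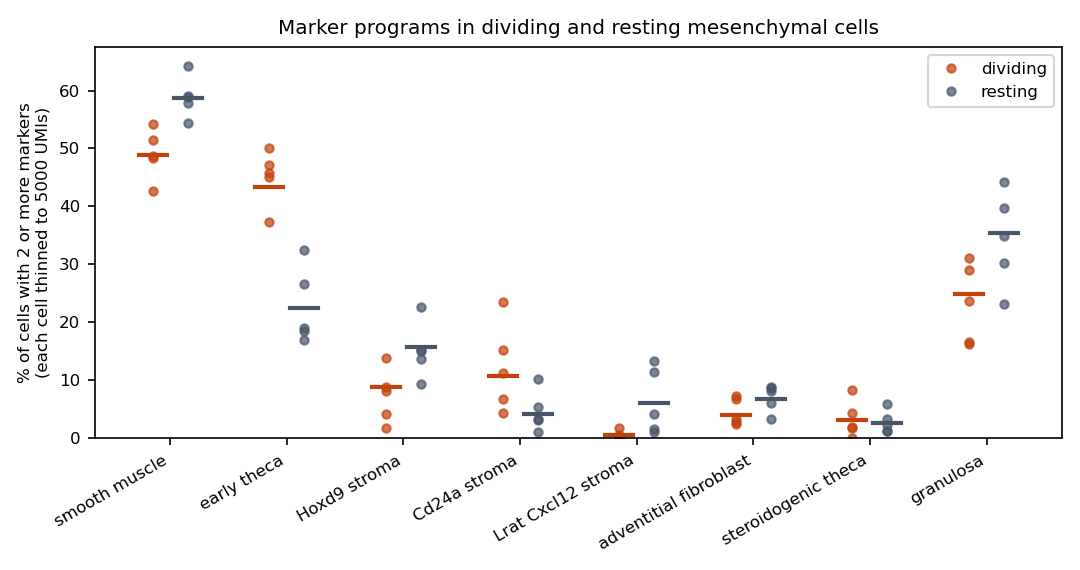
Percent of cells with UMIs of at least 2 markers of each program after thinning to 5000 UMIs, 1 point per library and a bar for all cells pooled, in dividing and resting mesenchymal cells. Early theca is higher in dividing cells (at least 37.3% in every library against at most 32.6%), and the Lrat and Cxcl12 program is held by 2 of 419 dividing cells.

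Markers of other cell types were measured in the members because droplets can mix cells. Granulosa markers summed to 371.5, 265.5, 330.9, 198.4 and 399.98 CPM in the members, below the 495.3, 430.8, 494.4, 326.9 and 531.2 CPM of resting cells against 7681 to 11857 CPM in dividing granulosa cells. The list holds Inha, on which the rule set these groups apart and which alone had a mean of 5149 CPM in dividing granulosa cells, so the gap to them was partly fixed by selection. Members and resting cells were both held to at most 4 UMIs of Inha. The Inha mean was 38.4 CPM in members and 69.1 CPM in resting cells, so their gap was open to selection too. All 10 had UMIs, Foxl2 was the most abundant, and Foxl2 was also the one that dividing granulosa cells did not exceed 2-fold at every age. Amh, which growing follicles secrete, had 44 UMIs over all members. Surface epithelium markers summed to 1.26 to 10.9 CPM, with Lgals7 the most abundant and Krt19 and Upk1b at 0, and 1 of the 8, Lgals7, was called lower than in resting cells.

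Leukocyte markers summed to 2.73 to 5.05 CPM in the members, with Fcer1g the most abundant and Laptm5 at 0, besides Ptprc, which the rule set to 0. Endothelial markers summed to 21.0, 27.3, 22.8, 22.7 and 13.2 CPM against 18.2, 16.8, 17.8, 14.4 and 11.9 CPM in resting cells, with Egfl7 the most abundant and Cdh5 at 0 by the rule. Pericyte markers summed to 46.6 to 78.4 CPM against 53.3 to 75.7 CPM in resting cells, with Cspg4 the most abundant and Rgs5 at 0 by the rule. Kcnj8, a pericyte channel gene, was the only gene of the leukocyte, endothelial and pericyte lists called, on the low side. Germ cell markers, all 5 with UMIs and Gdf9 the most abundant, summed to 13.2, 22.1, 5.47, 4.41 and 2.52 CPM against 3.29, 4.77, 4.22, 2.94 and 2.34 CPM. Endothelial and germ cell sums were thus above the resting level at every age, and their part in the results was not tested. For Gdf9 1 member held 53.3% of the UMIs at 2 wk and 96% at 3 wk, and Zp2 and Zp3 each came from 1 member at these ages. The doublet caller Scrublet marked 7 of the 422 members.

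The members were also compared with dividing granulosa cells of the same libraries, which share the mitotic rule and differ in lineage. Of 10572 genes past the minimum, 704 (6.66%) were at least 2-fold higher in the mesenchymal members in every library and 635 (6.01%) were lower. Which side was larger depended on the processing, with 212 higher and 272 lower after thinning, 458 and 555 at a minimum of 500 UMIs, 1041 and 1206 at 1.5-fold, and 633 and 697 without the 5 and 6 wk libraries. The division lists gave almost none of these. Of 127 genes past the minimum in the 8 lists, Anln alone was called, at a median ratio of 2.36, and the list medians ran from 1.0005 for replication to 1.33 for the spindle.

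Of 23 matrix genes past the minimum, 22 were higher in the members, with a median ratio of 39.7, and all 10 mesenchymal markers outside the rule were higher, with a median of 102. Enpep, a membrane peptidase that cuts angiotensin, stood at 74.4, 112.8, 127.6, 202.2 and 149.5 CPM in the members against 0.108 to 0.449 CPM in dividing granulosa cells, and was also 2.13 to 3.54 times the level of resting mesenchyme. Because Inha and mesenchymal UMIs set these groups apart, the lineage genes are a description.

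On the granulosa side, 8 of 9 markers outside the rule were lower in the members. Fst, the activin antagonist follistatin, stood at 1.26 to 6.38 CPM in the members against 319.2 to 1014 CPM, and Nr5a2, a nuclear receptor of granulosa cells, had 28 UMIs against 20614. The D cyclins differed by lineage. Ccnd2 was lower in the members, with a median ratio of 0.16, whereas Ccnd1 stood at 12.8 to 37.6 CPM against 0.269 to 0.522 CPM and was higher in every library. Cdkn2c and Cdkn2d were higher in the members as well, with median ratios of 5.28 and 3.69.

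Finally, the members at 2 wk were set against those at 6 wk, the ends of the series. Of 3863 genes past the minimum of 200 UMIs in the 2 libraries together, 73 (1.89%) were at least 2-fold higher at 2 wk and 53 (1.37%) at least 2-fold higher at 6 wk, with a median ratio of 1.03. These counts moved with the processing. After thinning before the rule, which also changed which cells met it, they were 12 and 7, with 4 and 6 genes among the 73 and 53. With 0 UMIs of Inha required they were 41 and 23, with 25 and 17 among the 73 and 53. With no minimum of UMIs they were 1064 and 1217, so the larger side turned. Most of the division lists gave no call at either age, with median ratios of 0.930 for kinases and cyclins, 1.01 for the kinetochore and 1.10 for the spindle. The exceptions were 2 histone genes. Hist1h1b stood at 357, 466, 376, 971 and 753 CPM and Hist1h2ap at 58.3, 56.8, 115.8, 333.2 and 309.1 CPM. Histone messages of this class lack a poly(A) tail and share sequence between copies, and dividing granulosa cells also had more of Hist1h2ap at 6 wk, with a ratio of 0.424.

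The files changed from Cell Ranger 3.1.0 at 2, 3 and 4 wk to 6.0.1 at 5 and 6 wk, so software and age cannot be told apart in the comparison of 2 wk with 6 wk. AC160336.1 shows a step at that point, at 196.5, 73.0, 58.3, 2.52 and 5.68 CPM. In the members Meg3, Plac8, Hist1h1b and Hist1h2ap also had their widest step between 4 wk and 5 wk. AY036118, at 32.2, 93.7, 72.0, 348.9 and 480.7 CPM, and Lars2, a mitochondrial leucyl-tRNA synthetase gene, at 26.4, 31.0, 33.7, 105.2 and 146.4 CPM, are higher at 5 wk and 6 wk in resting cells and in dividing granulosa cells too. Between 2 wk and 4 wk, which share the software, 128 genes were at least 2-fold higher at 2 wk, 36 of them among the 73, and 35 were at least 2-fold higher at 4 wk, 16 of them among the 53.

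Of 9 imprinted growth genes past the minimum, 4 (Dlk1, Meg3, Plagl1 and Peg3) were higher at 2 wk and 1, Mest, at 6 wk. Peg3, a zinc finger gene expressed from the paternal copy, stood at 145.1, 140.1, 70.2, 59.8 and 47.3 CPM, a ratio of 3.07 that resting cells matched at 3.02. Meg3, a noncoding RNA from the maternal copy, stood at 112.3, 70.8, 75.7, 6.30 and 17.7 CPM, with its widest step where the software changed. Dlk1, the neighbouring paternal gene, stood at 74.1, 1.47, 3.65, 0 and 0 CPM, at least 39.2-fold higher at 2 wk than the floor of 3 UMIs at 6 wk. Only 14 members at 2 wk carried Dlk1, and 1 of them held 45.3% of its UMIs.

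Zdbf2, another imprinted gene, stood at 96.2, 84.8, 15.5, 13.2 and 8.83 CPM in the members, a ratio of 10.9 (exact conditional interval 6.40 to 20.1). Its ratio was 6.79 in resting cells, so both groups had less of it at the later ages. The same held for Ptn, the growth factor pleiotrophin, at 144.2, 73.0, 53.8, 39.7 and 33.4 CPM with a ratio of 4.31 against 20.9 in resting cells. Igfbp5 stood at 148.8, 25.8, 39.2, 38.4 and 27.1 CPM, a ratio of 5.49 against 4.21. Penk, Lmcd1 and Ctgf had ratios of 4.82, 6.08 and 4.88.

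A few genes were higher at 2 wk in the members by more than in resting cells, although that difference was not tested. Cdkn1c, an imprinted CDK inhibitor, stood at 63.8, 34.7, 29.2, 13.9 and 10.1 CPM in the members, a ratio of 6.32 (3.81 to 11.2), and its ratio in resting cells was 1.75 (1.63 to 1.88). Hspb1, a small heat shock protein, had a ratio of 5.33 (3.25 to 9.33) against 1.26, with 32.7% of its 2 wk UMIs in 1 member. Hsd3b1, a steroid dehydrogenase, had a ratio of 9.08 against 0.895, and 1 member held 66.6% of its UMIs at 2 wk.

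On the older side, Ifi27l2a, an interferon-inducible gene, stood at 18.4, 22.1, 268.0, 379.1 and 428.4 CPM in the members and at 12.7, 18.6, 128.9, 238.3 and 320.3 CPM in resting cells. Its ratio of 2 wk to 6 wk was 0.0429 (0.0327 to 0.0555). Dividing granulosa cells had 0.808 to 3.63 CPM of it at any age, with a ratio of 1.35. Plac8 stood at 40.8, 28.0, 89.3, 250.7 and 215.1 CPM. For both genes the 2 wk and 3 wk libraries were low and the later ones high.

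Receptor and matrix genes were also among those higher at 6 wk. Of 17 growth factors and receptors past the minimum, 2 were higher at 2 wk and 2 at 6 wk. Of the 10 mesenchymal markers outside the rule, which include Pdgfrb, 2 were higher at 2 wk and 1 at 6 wk. Pdgfrb, the receptor for platelet-derived growth factor B, stood at 22.7, 49.4, 74.7, 81.9 and 103.5 CPM, in ascending order with age, and resting cells had 38.1, 49.8, 71.7, 73.3 and 100.9 CPM. Heyl, a Notch target, stood at 26.4, 39.8, 75.7, 60.5 and 127.4 CPM, a ratio of 0.21 against 0.54 in resting cells. Among 21 matrix genes past the minimum, Ogn, Col11a1, Col15a1 and Col4a1 were higher at 6 wk and Eln, which encodes elastin, was higher at 2 wk. Of 6 smooth muscle genes past the minimum, 3 (Cnn1, Actg2 and Des) were higher at 2 wk, where 1 member held 32.0%, 42.5% and 40.5% of their UMIs, and 1 member held 63.3% of the Actg2 UMIs at 6 wk. Rbp4, the retinol carrier, was higher at 6 wk at a ratio of 0.182, with 40.6% of its 6 wk UMIs in 1 member.

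**Figure D5:**
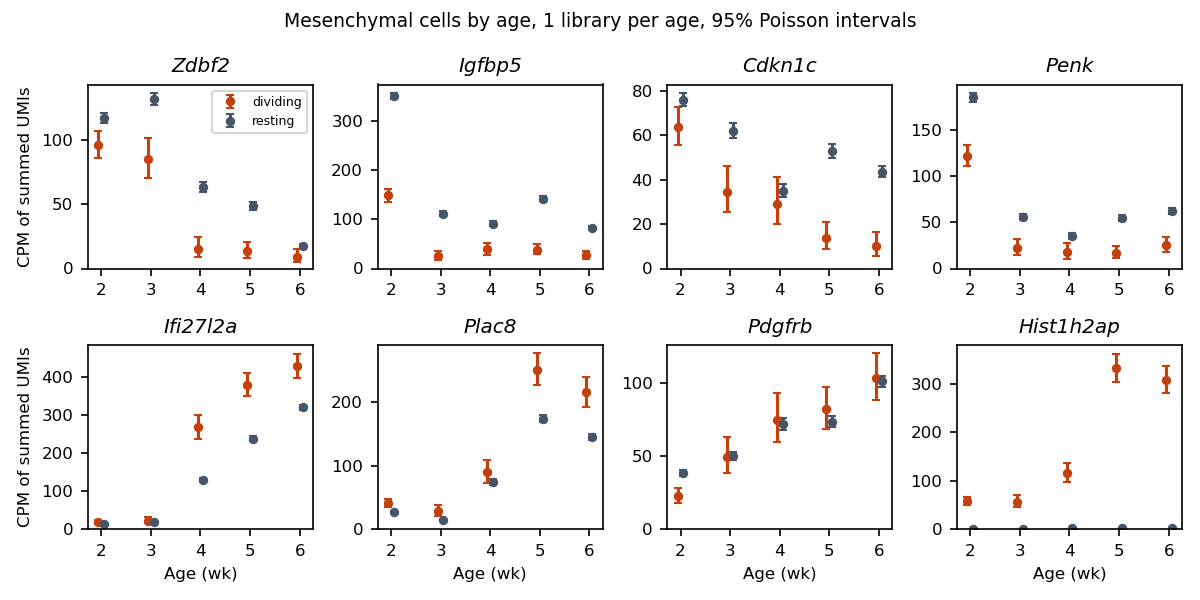
CPM of summed UMIs by age in weeks for 8 genes of the comparison of 2 wk with 6 wk, in dividing and resting mesenchymal cells, linear axes that start at 0, exact 95% Poisson intervals, 1 library per age. Ifi27l2a, Plac8 and Pdgfrb are higher at later ages in both groups, Zdbf2, Igfbp5 and Penk are lower, and Hist1h2ap is near 0 in resting cells.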

How the data were processed

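Ovaries of 5 ages were profiled with the Chromium Next GEM 3′ v3.1 kit. The deposited files hold UMI counts per gene and cell, which the authors made with Cell Ranger, 3.1.0 for 2, 3 and 4 wk and 6.0.1 for 5 and 6 wk per the file headers, on mm10 (GRCm38). No normalised value was used.

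The members and the gene lists were chosen with earlier results of these data known. UMIs were summed over the cells of a group in each library and scaled to CPM in Python 3.11.15 (scipy 1.17.1). CPM carry exact Poisson intervals, shares Clopper-Pearson intervals and ratios exact conditional intervals, all at 95% and for counting error only. Ribosomal, mitochondrial, Gm and Rik genes were not named. Besides list genes, those eligible to be named were the 12 each way outside the lists with the most extreme lowest or highest ratio against resting cells, and, from all genes, 10 each way ranked likewise against granulosa cells and 12 each way by age, ranked by the interval bound nearest 1. A group at 0 was set to a floor of 3 UMIs for ratios. Members held 3480821, 1356146, 1097148, 1587844 and 1585096 UMIs from 2 to 6 wk. Doublets were called with Scrublet in scanpy 1.11.5, 311, 271, 593, 207 and 304 cells from 2 to 6 wk, and kept except in an alternative. The code was tested on simulated data. The closing section gives the alternatives. Values of a few single genes are not reported here.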

Additional observations from a re-analysis of the deposited data

Results flagged for a closer look

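The dividing share at 2 wk over that at 6 wk was 2.49 (1.85 to 3.40) in mesenchymal cells and 0.686 (0.582 to 0.807) in granulosa cells, in opposite directions in the same libraries. The difference was not tested, since each age has 1 library. Hspb1 went in opposite directions too, with a ratio of 2 wk to 6 wk of 5.33 in dividing mesenchymal cells and 0.179 in dividing granulosa cells, and this difference was not tested either. At 2 wk 1 member held 32.7% of the Hspb1 UMIs.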

How the results depend on the processing

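No paired analysis was possible because each age has 1 library, so that the ages share no replicates. The contrasts with resting and granulosa cells were already made within each library. The smooth muscle, Hoxd9, adventitial, granulosa and pericyte program shares turned direction without thinning, as given above. Endothelial markers turned too, at 0.239% of members against 0.313% of resting cells thinned and 4.03% against 0.811% unthinned. So did hematopoietic markers, at 0 against 0.0781% thinned and 0.237% against 0.116% unthinned. The 2 wk over 6 wk share (2.49) kept its direction under 12 alternatives, at 3.89 for members with 0 UMIs of Inha, 1.80 when cells were thinned to 5000 UMIs before the whole rule, and 1.78 with 4 wk in place of 6 wk. Thinning the mitotic genes alone, chosen after seeing the data, gave 2.17. No alternative raised the limit on Inha, though thinning before the whole rule made that limit easier to meet. Dropping the minimum of 200 UMIs moved the counts by age most, and with it the larger side, which also turned against granulosa cells after thinning, at 500 UMIs, at 1.5-fold and without the 5 and 6 wk libraries. Genes higher than in resting cells (524) were 305 after thinning, 883 at 1.5-fold and 339 at 3-fold. Genes lower (178) were 94 with 0 UMIs of Inha, 56 after thinning, 591 at 1.5-fold, 29 at 3-fold and 280 without the 5 and 6 wk libraries, an alternative also chosen after seeing the data. Genes higher at 2 wk (73) were 41 with 0 UMIs of Inha, 25 of them among the 73, 12 after thinning, 4 of them among the 73, 1064 with no minimum, 22 at a minimum of 500 UMIs, 233 at 1.5-fold, 29 at 3-fold and 128 over 4 wk. Genes higher at 6 wk (53) were 23, 7, 1217, 20, 162 and 18 in the same order, with 17 of the 23 and 6 of the 7 among the 53, and 35 were higher at 4 wk than at 2 wk. Genes higher than in dividing granulosa cells (704) were 212 after thinning, 1179 with no minimum, 458 at 500 UMIs and 460 at 3-fold. Genes lower (635) were 405 with 0 UMIs of Inha, 272 after thinning, 1206 at 1.5-fold and 328 at 3-fold. Fewer UMIs and another fold change these counts by construction, and thinning before the rule also changed which cells met it. The cause of the shift with Inha was not tested.

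With 59 to 160 members per age, low genes rest on few molecules, and single members can carry a level.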

Other observations

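Mesenchymal cells with 1 to 3 mitotic genes, which neither group holds, lay between resting cells and members for several genes. As the mean of the 5 libraries, Ogn stood at 1117 CPM in cells with 0 mitotic genes, 861 CPM with 1, 397 CPM with 2 or 3 and 158 CPM with 4 to 6. Hspa1a stood at 295, 196, 123 and 69.9 CPM over the same classes, and Mest at 27.5, 44.1, 77.2 and 92.5 CPM.

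Cdkn2c stood at 26.3, 26.8, 29.3 and 97.1 CPM and Ccnd2 at 282, 279, 212 and 88.8 CPM, with the widest step before the last class for both. Pcna, the replication clamp, stood at 30.5, 39.6, 103.8 and 95.4 CPM, with the widest step one class earlier. Cells with more mitotic genes also had more UMIs, whose part in these orders was not tested.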
